A study of Mus musculus with 2 samples.

Results

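The clustered histone genes are the protein-coding genes whose symbols start with Hist1h, Hist2h, Hist3h or Hist4h, and they made up 67 of the 21911 protein-coding genes of the GENCODE M21 annotation of the mouse genome (build mm10). Of these, 54 lay in the Hist1 cluster on chromosome 13, 10 in Hist2 on chromosome 3, 2 in Hist3 on chromosome 11 and 1, Hist4h4, on chromosome 6. By product they were 6 genes for the linker histone H1, 18 for H2A, 18 for H2B, 12 for H3 and 13 for H4. Open chromatin at these genes was mapped by DNase-seq, which finds DNA that the enzyme DNase I can cut, in the stomach of newborn B6NCrl mice (postnatal day 0). There was 1 group of 2 replicates with 1 library each, and no treatment or genotype was compared. Both libraries carry the same donor label, the labels do not say whether separate animals were used, and the sex was not collected. Replicate 2 names a pair of sequencing instruments and replicate 1 names none.

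Histones are the proteins around which DNA is wrapped: H2A, H2B, H3 and H4 form the core of the nucleosome, and H1 binds the DNA between nucleosomes. The clustered genes are the replication-dependent ones. Cells transcribe them mainly in S phase to package newly made DNA, and their mRNAs end in a conserved stem loop that SLBP binds, in place of a poly(A) tail. Many lie in divergent pairs, in which an H2A and an H2B gene start back to back from a common promoter. A separate set of replacement histones, such as H2A.Z and H3.3, is made outside S phase as well, from genes elsewhere in the genome.

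The lists held 139374 peaks in replicate 1 and 152779 in replicate 2, each at most 150 bp long, and 128245 and 138504 wider hotspots. Where a peak of replicate 1 and a peak of replicate 2 overlapped, by 1 bp or more, they were merged, which gave 105606 shared regions. The signal deposited with each peak has no stated unit or scaling, so it was read as a percentile among all peaks of its own replicate. The tissue label was set against markers: 15 of 16 stomach genes had a shared region within 1 kb of a start, all but Barx1, which had a peak in replicate 1 only, against 66.4% of all protein-coding genes. Of other tissues, 3 of 4 liver, 1 of 5 pancreas, 2 of 5 germ cell and 1 of 4 blood cell markers had one. With a share that high among all genes, these short lists are a weak check of the tissue. In whole tissue, few cells with an open site and many cells with a partly open one cannot be told apart.

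The site shared by a divergent H2A and H2B pair and 4 further regions show the letters behind the strongest signals, with Hist1h4f as the H4 gene of the highest percentile. Each runs 5′ to 3′ and was read from the RefSeq genome of the build GRCm38 (mm10). Capitals mark 3 motifs, each as spelled or as its reverse complement: the CCAAT box, the octamer ATTTGCAT, and the GC box, which is spelled GGGCGG. NF-Y binds CCAAT boxes, and the octamer binds Oct1, which Pou2f1 encodes and which is known for H2B transcription in S phase. The first is the whole shared region between Hist1h2ah and Hist1h2bk (chr13:22035656-22035805, plus strand), and the next are the regions at Hist1h2bh (chr13:23543436-23543585, minus strand), Hist1h3e (chr13:23562416-23562585, minus strand), Hist1h4f (chr13:23551636-23551805, minus strand) and Hist2h2bb (chr3:96269516-96269685, plus strand).
Hist1h2ah and Hist1h2bk: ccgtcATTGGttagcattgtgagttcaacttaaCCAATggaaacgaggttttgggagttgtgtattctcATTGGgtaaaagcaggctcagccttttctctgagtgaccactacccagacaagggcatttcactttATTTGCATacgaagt
Hist1h2bh: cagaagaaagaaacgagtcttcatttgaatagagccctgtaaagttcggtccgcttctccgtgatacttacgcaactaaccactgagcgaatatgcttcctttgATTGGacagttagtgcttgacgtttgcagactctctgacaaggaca
Hist1h3e: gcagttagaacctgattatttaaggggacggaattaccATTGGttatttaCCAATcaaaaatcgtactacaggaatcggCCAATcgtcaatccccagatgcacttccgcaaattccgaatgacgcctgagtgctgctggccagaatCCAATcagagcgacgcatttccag
Hist1h4f: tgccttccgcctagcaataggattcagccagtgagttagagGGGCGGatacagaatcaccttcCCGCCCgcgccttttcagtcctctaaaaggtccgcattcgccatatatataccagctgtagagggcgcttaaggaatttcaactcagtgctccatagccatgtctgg
Hist2h2bb: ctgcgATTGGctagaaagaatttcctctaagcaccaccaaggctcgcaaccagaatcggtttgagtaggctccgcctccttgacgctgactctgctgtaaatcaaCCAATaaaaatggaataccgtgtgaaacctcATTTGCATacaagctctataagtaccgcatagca
The H2A and H2B regions hold CCAAT boxes, the Hist1h3e region holds 4 of them, and the Hist1h4f region holds GC boxes and no CCAAT box.

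Most clustered histone genes had an open promoter, and most of the open ones ranked near the top of both peak lists. There was a shared region within 1 kb of a start at 54 of the 67 genes (80.6%, 95% Wilson interval 69.6 to 88.3%), against 66.4% of all protein-coding genes. Replicate 1 alone had a peak at 56 of them, against 68.2% of all genes, and replicate 2 at 54, against 69.4% of all genes. Shared hotspots also marked 54, against 66.8% of all genes. By class, a shared region lay at 4 of 6 H1 genes, 14 of 18 H2A, 15 of 18 H2B, 10 of 12 H3 and 11 of 13 H4 genes. The counts per class are too small for their intervals to part, as with H2A at 54.8 to 91.0% and H4 at 57.8 to 95.7%.

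The strongest promoter peak of the 54 open genes sat at a median percentile of 97.2 (interquartile range 93.6 to 98.3), averaged over both replicates, against 92.6 (80.2 to 97.2) for all open protein-coding genes. At 49 of the 54 genes (90.7%) it reached the 90th percentile, against 58.6% of all open genes. The median was 97.1 in replicate 1 and 97 in replicate 2 when each list was used alone. By class it was 92.5 for H1, 97.4 for H2A, 97.9 for H2B, 97.8 for H3 and 95.3 for H4. Neighbouring genes can count the same region: the 54 genes had 41 distinct strongest regions, so their values are not independent. The strongest peak within 1 kb can also lie at a neighbouring gene, as described below for some members. The members with the highest mean percentile were Hist1h2bh and Hist1h3f at 99.4, which share a region, then Hist1h2ah, Hist1h2bk and Hist1h3e at 99.2, then Hist1h2ak, Hist1h2bn, Hist2h2bb and Hist2h3b at 98.7.

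Hist1h2bh, for an H2B, and Hist1h3f, for an H3, reached 121 in replicate 1 and 123 in replicate 2, as deposited signal, at the region printed above. Hist1h3e, for an H3, had 118 and 122, and further signals are likewise given for replicate 1 and then replicate 2. Hist2h2bb, for an H2B, and Hist2h3b, for an H3, had 108 and 127, which is the highest value of any member in replicate 2. That region is the one printed for Hist2h2bb and lies past the end of Hist2h3b, whose own start had 98 and 100. The lowest among open members was Hist1h1b, for a linker histone, with 52 and 58 at a mean percentile of 60.9. Hist2h2aa1, for an H2A, had 55 and 61 (percentile 64.9), and the H4 genes Hist1h4k, Hist1h4i and Hist1h4j followed with 78.9, 83.7 and 86.3. Thus 3 of the 5 open members with the lowest percentile encode H4.

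**Figure D1:**
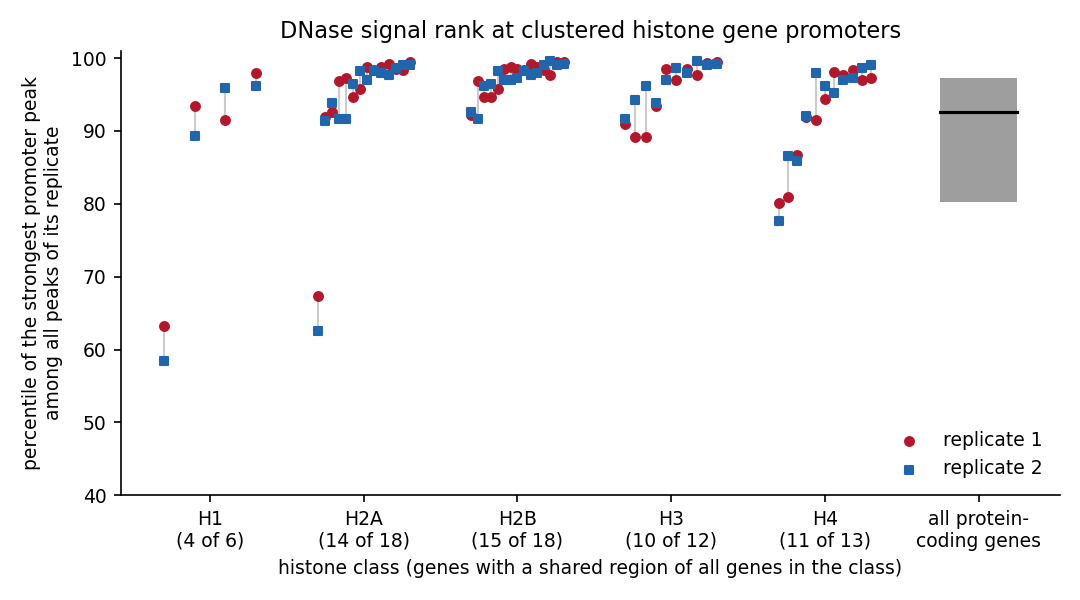
Percentile of the strongest promoter peak among all peaks of its replicate (y axis) for each open gene of the 5 histone classes (x axis), with replicate 1 as circles and replicate 2 as squares joined by a line. The box gives the interquartile range of all open protein-coding genes, 80.2 to 97.2, with a line at the median of 92.6. Most histone genes lie above that median, and Hist1h1b (mean 60.9) and Hist2h2aa1 (mean 64.9) lie lowest.

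The nearest open site of most histone genes lay further upstream than the median of all open genes. The centre of the nearest shared region was at a median of -99.0 bp from the annotated start (negative is upstream; interquartile range -137.5 to -60.5), against -31.5 bp (-73.5 to 0.5) for all open genes. The distance is the shortest over all annotated starts and regions of a gene, so more of either can only shorten it. Open members had a median of 1 region and all open genes 2, so the comparison is not like for like. It lay upstream at 51 of the 54 genes (94.4%), against 74.7% of all open genes. The H2A genes had a median of -122.5 bp and the H2B genes -118.5 bp, and at every open gene of both classes the centre was upstream. A region centred in the gap of a divergent pair lies upstream of both genes and counts for each. H3 genes had -58.5 bp and H4 genes -76.5 bp. At the 4 open H1 genes the median was -1.5 bp: the site lay over the start of Hist1h1b (-5.5 bp), Hist1h1e (7.5 bp) and Hist1h1c (2.5 bp), and upstream of Hist1h1a (-65.5 bp).

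The start used matters for these short genes, because for 11 of the 67 the GENCODE start was the first base of the coding sequence. With RefSeq starts in place of GENCODE ones, an alternative chosen after seeing the data, the median was -84.5 bp over 55 genes. This alternative was computed for the members only. By class it was then -97.5 bp for H2A, -99.5 for H2B, -70.5 for H3, -52.5 for H4 and -1.5 for H1. Under either annotation the H2A and H2B sites had the medians furthest upstream, and H1 had a median over the start.

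**Figure D2:**
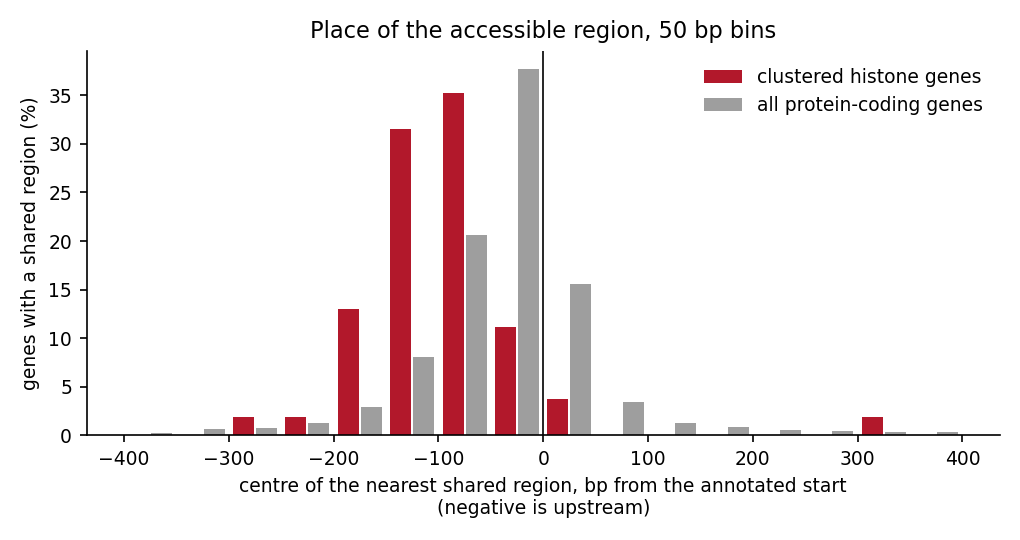
Share of open genes (y axis, %) by the distance of the nearest shared region's centre from the annotated start (x axis, bp, 50 bp bins, negative is upstream), for the clustered histone genes in red and all protein-coding genes in grey. Of the open histone genes, 35.2% lie between 100 and 50 bp upstream and 31.5% between 150 and 100 bp, while the tallest bin of all genes, 37.7%, is the last 50 bp before the start.

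Divergent histone pairs had at most 1 open site in their gap, and so did most divergent pairs of other genes. Of the 718 other protein-coding pairs, 31 had 2 or more. There were 13 pairs of members that start back to back within 1 kb, at a median of 268 bp between starts (176 to 660), and 12 of them join an H2A with an H2B gene. Exactly 1 shared region lay in the gap of 10 pairs, and the gap of the other 3 held none. The deposited signal of the 10 regions was 97 to 121 in replicate 1 and 97 to 123 in replicate 2, with a median percentile of 98.3, against 96.7 for the divergent pairs of other protein-coding genes with a region. At least 1 region lay in the gap of 76.9% of the histone pairs, against 68.5% of the 718 other pairs, whose median gap was shorter at 125 bp.

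The shortest gap, 176 bp between Hist1h2ae and Hist1h2bg, had a region with signals of 114 (replicate 1) and 112 (replicate 2). Hist1h2bf and Hist1h2ad, 185 bp apart, had 114 and 116. Hist2h2ac and Hist2h2be, 239 bp apart, had 104 and 97, and Hist1h2an and Hist1h2bp, 243 bp apart, had 97 and 110. Hist1h2ap and Hist1h2br, 236 bp apart, had no peak in either replicate. The pair without an H2A gene, Hist1h2bh with Hist1h3f, had the widest gap of 660 bp, and its region centred 118.5 bp from the H2B start and 541.5 bp from the H3 start. Over all members, 66 distinct shared regions lay within 1 kb of a start, of which 19 served 2 members and none served 3.

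**Figure D3:**
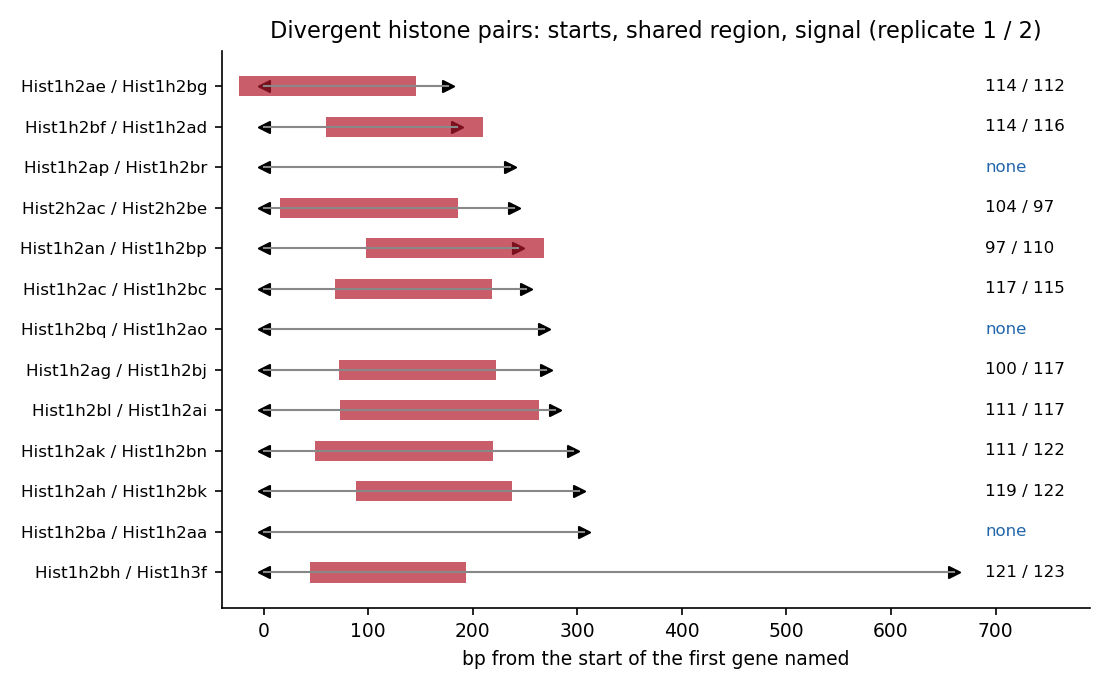
The 13 divergent histone pairs, one per row, from the shortest gap at the top: triangles mark both starts, the red bar the shared region, and the x axis gives bp from the start of the first gene named. The numbers at the right are the deposited signal in replicate 1 and replicate 2, from 97 to 123, and 3 pairs have no region.

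The 13 members without a shared region fell into 3 kinds: genes in inverted repeats, genes known for the testis, and Hist1h1d. To describe the first, each promoter (1 kb on either side of a start) was cut into windows of 36 bases, and the share of windows that occur once in the genome was counted. The sources used here give neither the read length nor the treatment of reads that map to several places. Of all protein-coding genes with under 10% such windows, 0.531% had a shared region (4 of 753). That share was 12.4% of 644 genes at 10 to 50%, 40.4% of 2417 at 50 to 90% and 74.6% of 18097 at 90% or more. The members ran 0 of 6, 1 of 4, 44 of 44 and 9 of 13 over the same ranges.

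The 6 members of the lowest range form an inverted repeat in Hist1: Hist1h2bq, Hist1h2ao and Hist1h4m on 1 side, and Hist1h4n, Hist1h2ap and Hist1h2br on the other. The H2A and H2B promoters there had no unique 36-base window, and Hist1h4m and Hist1h4n had 4.83 and 5.09%. With windows of 76 bases the 6 promoters held 0 to 13.9% unique ones. None had a peak in either replicate. Hist2 holds a second inverted repeat, of Hist2h3c2 and Hist2h2aa2 on 1 side and Hist2h2aa1 and Hist2h3c1 on the other, with 19.9 to 43.8% unique windows. There, Hist2h2aa1 had a shared region centred at -286.5 bp with a signal of 55 and 61, Hist2h3c1 had no peak, and the other two had peaks in replicate 1 only, with a strongest signal of 39 at Hist2h3c2 and 59 at Hist2h2aa2. Whether the promoters of these repeats were open cannot be read from lists in which their letters match more than 1 place, and this was not tested further.

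**Figure D4:**
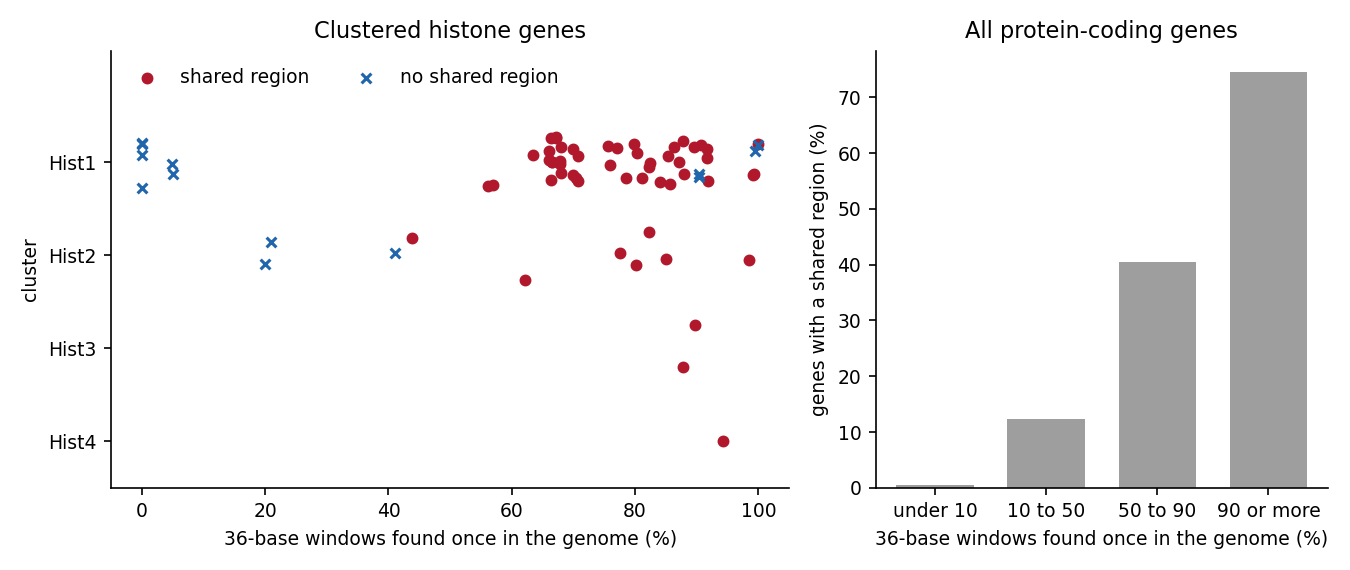
Left, each clustered histone gene by the share of its promoter's 36-base windows found once in the genome (x axis, %) and its cluster (y axis, points spread vertically to part them), as a circle with a shared region and a cross without. Right, the share of all protein-coding genes with a shared region (y axis, %) in 4 ranges of the same measure, from 0.531% under 10 to 74.6% at 90 or more. Of the 13 crosses 6 lie under 10%, 3 of Hist2 lie between 19.9 and 41.1%, and 4 lie at 90% or more.

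Hist1h2ba and Hist1h2aa, for the H2B and H2A variants known as TH2B and TH2A, and Hist1h1t, for the linker histone H1t, are known for expression in male germ cells. Their promoters were 90.3, 90.3 and 100% unique, and neither replicate had a peak within 1 kb of any of their starts. Hist1h2ba and Hist1h2aa form a divergent pair 306 bp apart that stands alone at the end of Hist1, and that block of 1.08 kb held no peak or hotspot in either replicate. The middle of its gap (chr13:23934225-23934394, plus strand) and the bases before the Hist1h1t start (chr13:23695664-23695833, plus strand) are shown for comparison with the open promoters above, with capitals as there and also for TATAAA or its reverse complement.
Hist1h2ba and Hist1h2aa: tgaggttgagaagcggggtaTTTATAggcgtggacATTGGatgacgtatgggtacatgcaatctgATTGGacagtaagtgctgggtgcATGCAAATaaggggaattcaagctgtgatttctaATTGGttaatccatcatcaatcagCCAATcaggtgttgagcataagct
Hist1h1t: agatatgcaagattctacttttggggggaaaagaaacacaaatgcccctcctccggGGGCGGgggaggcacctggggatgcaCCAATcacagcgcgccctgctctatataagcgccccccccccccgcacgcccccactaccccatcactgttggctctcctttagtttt
The gap without a peak holds 4 CCAAT boxes, 1 octamer and 1 TATA box, so the CCAAT box and octamer of the open Hist1h2ah gap recur in it, and Hist1h1t holds 1 CCAAT box and 1 GC box. The germ cell markers Ddx4, Sycp3 and Zp3 had no shared region either, while Dazl and Dmc1 had one.

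Hist1h1d, for the linker histone H1.3, was the last of the 13, and the 2 annotations place its start differently. Its GENCODE gene record starts at position 23553262 of chromosome 13, and its RefSeq start lies at 23555032. A shared region at chr13:23554956-23555105, whose signal was 87 in replicate 1 and 97 in replicate 2, was centred 1.5 bp upstream of the RefSeq start. With RefSeq starts, 55 of the 67 members (82.1%) had a shared region. The 5 somatic H1 genes of the cluster then all had one, at or near their starts.

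Outside Hist1, all members had a shared region except the 3 of the Hist2 repeat. In Hist2, Hist2h2ab had 106 and 97, Hist2h2ac and Hist2h2be shared 104 and 97, and Hist2h4, for an H4, had 111 in replicate 1 and 113 in replicate 2. In Hist3, Hist3h2ba had 90 and 99 and Hist3h2a 112 and 120. Hist4h4, the only member of its locus and for an H4, had 89 and 90 at its start, and a region past its coding end had 80 and 98. The start of Trim17, a ubiquitin ligase gene, overlaps that of Hist3h2a in the annotation, and the 3 shared regions of each are the same.

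Many histone promoters were open at a GC content at which a minority of all genes were. From 250 bases before to 50 after the start, the members had a median GC content of 45.3%, against 55% for all protein-coding genes. Below 40% GC, 9 of 10 members had a shared region, against 12.6% of all 1965 genes in that range. From 40 to 45% all 18 members had one, against 32.1% of 2147 genes, and from 45 to 50% 15 of 22 had one, against 49.6% of 3122 genes. Of the 7 members without one from 45 to 50%, 5 belong to the Hist1 inverted repeat and the others are Hist1h2ba and Hist1h2aa. From 50 to 55% 9 of 11 members had one, against 65.1% of 3689 genes, and those without were Hist1h2ao, of the Hist1 inverted repeat, and Hist1h1t. Among the 6 members at 55% or more 3 had a shared region, against 88.0% of 10988 genes. The 3 without one, and 1 of those with one, are the genes of the Hist2 inverted repeat. The others in that range, Hist1h4k and Hist1h4a, had a shared region. Whether the repeat promoters were open cannot be read from these lists, so their missing calls are not counts of closed promoters. The median number of CpG dinucleotides in the window was 11.0 for the members and 11.0 for all genes.

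The motifs of the printed sequences recurred by class. Over the same windows, and on both strands, CCAAT was found in 83.6% of members, against 39.0% of all protein-coding promoters. It was in all 18 H2A and all 18 H2B promoters, in 91.7% of H3 and in 83.3% of H1 promoters, but in 30.8% of H4 promoters. The octamer ATTTGCAT was in 22.4% of members, against 1.57% of all promoters, and all of these were H2A (38.9%) or H2B (44.4%) genes. The TATA box TATAAA was in 55.2% of members, against 12.6% of all promoters. TTTNNCGC, a form of the E2F site, was in 31.3% of members, against 6.31%, and in no H3 promoter. The GC box GGGCGG was in 41.8% of members, against 43.0%, and in 76.9% of H4 promoters.

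A divergent pair counts its gap for both genes, so the H2A and H2B values are not independent. The place of each match from the RefSeq start was taken in the 54 members with a shared region. The median over matches was -33.0 bases for TATA boxes (36 matches), -97.0 for CCAAT boxes (127) and -117.0 for octamers (13). CCAAT was in 85.2% of the 54 members with a shared region and in 76.9% of the 13 without. The shares were 57.4 and 46.2% for TATAAA, 24.1 and 15.4% for the octamer and 44.4 and 30.8% for the GC box. For the E2F form they went the other way, at 29.6 and 38.5%. The 13 include genes of the inverted repeats, whose state cannot be read, and Hist1h1d at its GENCODE start. They are therefore not a set of closed promoters. The strongest shared region within 1 kb of each open member gave 41 distinct regions. Within these, CCAAT was in 78.0%, against 22.8% of 30336 promoter regions in the genome, and the octamer in 19.5%, against 0.936%. The genome set took every region at a start and not the strongest of each gene, so the sides were picked differently. A match is a description of letters and not of a bound factor, and short motifs such as CCAAT occur often by their length.

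**Figure D5:**
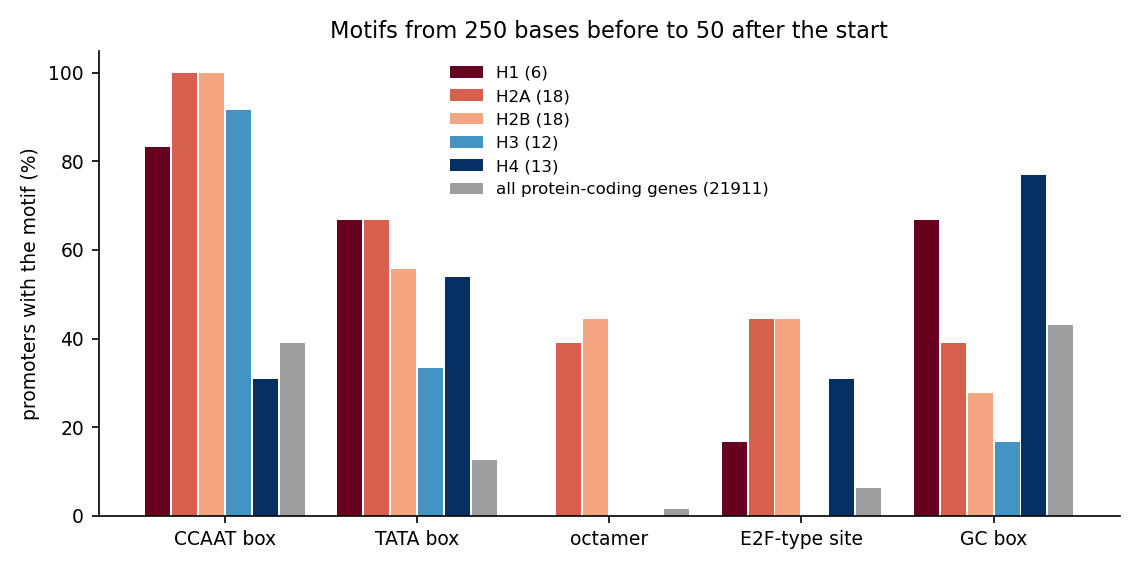
Share of promoters (y axis, %) that hold each of 5 motifs (x axis) from 250 bases before to 50 after the start, for the 5 histone classes and for all protein-coding genes in grey. CCAAT is in 100% of H2A and H2B promoters and 30.8% of H4 ones, the octamer is in H2A and H2B genes alone among the classes, and the GC box is highest in H4 at 76.9%.

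At the other end of the genes, the histone stem loop was looked for as 16 bases with a perfect stem of 6 pairs that starts GG and a loop of 4 that starts TT. It was found within 150 bases after the last coding base in 60 of the 67 members (89.6%), starting a median of 35 bases after it, against 0.0549% of 21844 other protein-coding genes. The 7 without it were Hist1h2an, Hist1h2bp, Hist1h2bq, Hist1h2br, Hist1h3g, Hist1h4a and Hist2h2be. The search began after the outermost coding base of all transcripts of a gene. That coding span was 1546 bp at Hist1h2bp and 2069 bp at Hist1h2bq and Hist1h2br, against 378 bp at Hist1h2bn. For these 3 H2B genes the bases after an earlier stop were not searched, so they cannot be said to lack the loop. The 3 commonest forms, in 38, 9 and 8 members, are shown with the stem in capitals. The search itself fixed their length and fold and the first letters of stem and loop, so they could vary only in the other letters.
Form in 38 members: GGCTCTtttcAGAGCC
Form in 9 members: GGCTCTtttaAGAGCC
Form in 8 members: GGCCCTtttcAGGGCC
Hist1h1t and the pair Hist1h2ba and Hist1h2aa are among the 60, so members without a peak hold the loop as well.

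Some members also had an open site just past their coding end. A shared region was centred within 500 bp after the last coding base, and over 250 bp from any annotated start, at 10 of the 67 genes. Among the members with an open start it was 9 of 54 (16.7%), against 3.28% of other open protein-coding genes and 9.70% of the 330 other open genes with a single exon. Of the 6 H1 genes 4 had one. At Hist1h1b it had 96 in replicate 1 and 97 in replicate 2, against 52 and 58 at the start. At Hist1h1c it had 109 in both, against 96 and 98 at the start, and at Hist1h1d 102 and 107, against 87 and 97 at its RefSeq start. Hist1h1e had 89 and 91, against 93 and 92 at the start, and this region also lies upstream of Hist1h2be. The others were Hist1h4h with 110 and 106, Hist4h4 with 80 and 98, Hist1h2bc with 71 and 85, Hist1h4j with 60 and 70, Hist1h2bm with 56 and 57 and Hist1h2bn with 43 and 55. Regions past the end of a short gene can lie within 1 kb of its start. They supplied the strongest promoter peak in both replicates at Hist1h1c, Hist1h4h, Hist1h3a and Hist2h3b, and in replicate 2 at Hist4h4. At Hist1h3a this region had 105 and 119, against 99 and 118 at the start, and it lies upstream of Hist1h4a. At Hist2h3b it is the Hist2h2bb region with 108 and 127, against 98 and 100 at the Hist2h3b start. Both lie within 250 bp of the neighbour's start, so they are not among the 10. Regions further upstream supplied the strongest promoter peak at Hist1h3c, Hist1h4j and Hist1h3f. At Hist1h3c this was the Hist1h2bb region with 112 in both, against 79 and 105 at the region nearest the start. At Hist1h4j it had 78 and 86, against 57 and 77. At Hist1h3f it was the Hist1h2bh region with 121 and 123, against 97 and 105.

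The wider hotspots were also counted at the histone promoters. Members had 77 hotspots at their starts in replicate 1 and 84 in replicate 2, with median widths of 294 and 305 bp, against 322 and 323 bp for the promoter hotspots of all genes. The -log10 of the q value reached its ceiling of 100 in 61.0 and 67.9% of them, against 50.6 and 50.1%. The widest spanned 1350 bp in replicate 1 and 1715 bp in replicate 2, covered the start of Hist1h2be and lay within 1 kb of the start of Hist1h1e. Hotspots over 1000 bp also lay at Hist2h4 (1053 and 1248 bp) and, in replicate 2, at Hist4h4 (1561 bp), Hist1h1c (1082 bp) and Hist1h1b (1013 bp). In each replicate 1 hotspot covered the 5′ ends of 2 or more members.

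Across the clusters, open sites were denser in most blocks of histone genes than over the whole Hist1 span. The Hist1 span of 2219 kb held 138 shared regions, or 6.22 per 100 kb, against 3.87 over the genome. Split where members lie over 100 kb apart, its blocks had 13.1 per 100 kb (18 members in 121.8 kb, with the repeat described above), 35.2 (5 in 8.51 kb), 19.7 (29 in 233.4 kb) and 0 (the testis pair). Hist2 had 9 regions in 50.3 kb, or 17.9 per 100 kb. A block runs from its first to its last member, and no density of genes was set beside these values. Of the 152 regions in all 4 clusters, 65 (42.8%) lay within 1 kb of a member start with a median percentile of 93.3. Another 33 lay within 250 bp of a tRNA gene, at a median percentile of 71.3, and 9 at the start of another protein-coding gene. The remaining ones were 2 at other annotated starts and 43 elsewhere, which include the Hist1h1d site. Of the 152, 73 lay between the Hist1 blocks, for which no density was computed.

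The tRNA genes lie between the histone blocks of Hist1, a known large tRNA cluster. Of 77 tRNA genes in the span 33 had a shared region within 250 bp (42.9%), against 192 of 408 in the genome (47.1%). Of the other protein-coding genes in the spans, 8 of 49 (16.3%) had a shared region at a start, against 66.4% of all genes. None of 35 vomeronasal receptor genes, which serve pheromone detection, had one, while 8 of the other 14 did: Zfp184, Zfp322a, Abt1, Btn2a2, Hfe, Slc17a2, Slc17a4 and Trim17. Hfe, the hemochromatosis gene, had its strongest peak at percentile 80.9, Slc17a2 at 51.0 and Slc17a4, both phosphate transporter family genes, at 35.0.

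The genes most like the members, the 14 replacement histones, were open in 11 cases (78.6%), near the 66.4% of all protein-coding genes. Their median percentile was 97.4, against 92.6 for all open genes. H2afx was at 99.7, H2afz at 99.1, H3f3b at 99.0 and Cenpa, for the centromere histone, at 98.5, while H2afy2, for a macroH2A, was at 51.6 and H1fx, for a linker histone, at 40. H2afb1, H1foo and H1fnt had no peak in either replicate, and all 3 are known from germ cells. All 35 matched genes for the supply of histone mRNA and protein had a shared region, against the same 66.4% of all genes, with a median percentile of 97.5, and 1 listed name was not matched. Npat, which activates the clustered genes, was at 99.8, Slbp at 99.1, Casp8ap2 at 99.0, Hinfp, an H4 promoter factor, at 99.9, and Pou2f1 at 96.3. All 14 S phase genes, such as Pcna (98.9) and Mcm3 (100), were open too, with a median percentile of 97.7. The corresponding median of the open clustered genes was 97.2.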

How the data were processed

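DNase-seq lists of peaks and hotspots on build mm10 were used for both replicates. The authors called each list from that replicate's own filtered alignments, per the deposited file lists; the sources used here do not give the aligner, caller, thresholds or number of reads, so the depth is unknown. The deposited signal of a peak is a whole number without a stated unit and was used as a percentile within its list. For hotspots the deposited value is -log10 q, going by the column layout, and the deposited score was not used. Scaffold and mitochondrial intervals were left out.

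Starts were those of GENCODE M21 transcripts, with 27 repeated symbols dropped, and all 67 members were matched to RefSeq (GRCm38.p6) through synonyms and overlap. An open promoter had a shared region within 1 kb of any start. With 1 group of 2 libraries, which may share an animal, no test was run: counts stand beside all protein-coding genes, and Wilson intervals cover counting error only. These intervals take genes as independent, although 19 regions served 2 members. Promoter uniqueness counted exact windows of 36 and 76 bases on either strand, checked on simulated data. The members and lists were chosen with earlier results of these data known. The genes named are members without a shared region, the 8 highest and 5 lowest of the open ones, all members outside Hist1, all H1 genes, 3 known for the testis, the 5 closest pairs, the most repeated members, members with a peak in 1 replicate, and closed replacement histones; ties for the eighth place were all named. Python 3.11.15, numpy 2.4.6, pandas 2.3.3, scipy 1.17.1, numba 0.67.0 and matplotlib 3.10.9 were used.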

Additional observations from a re-analysis of the deposited data

How the results depend on the processing

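Over 75 recomputed values of 14 results, 60 moved by less than their interval, the spread between replicates or 1.5 times for a count. The share of clustered histone genes with a shared region was 80.6 to 85.1% under every alternative: other windows, single replicates, stronger peaks, stricter overlap, gene-record starts, hotspots and RefSeq starts. In windows of 250 bp and 2.5 kb, all protein-coding genes had 62.6 and 70.0%. The median number of regions per member was 2 in a window of 2.5 kb and 1 to 2 in single replicates. The median percentile was 95.6 in a window of 250 bp, 97.7 in 2.5 kb, 96.9 with RefSeq starts and 97 to 97.1 in single replicates. No value for all genes stands beside these medians. The median distance was -97.5 to -94.0 bp in single replicates and -84.5 bp with RefSeq starts, which were chosen after seeing the data. The clusters held 211 to 255 peaks of single replicates, without the demand that both share them, and 31.6% of shared regions lay within 250 bp of a member start. In the 100 bases before the start CCAAT was in 64.2% of members (21% of all promoters), TATAAA in 34.3% (5.68%), the octamer in 8.96% (0.657%), the E2F form in 10.4% (2.17%) and the GC box in 25.4% (30.8%).

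No paired analysis was possible because there is 1 group only. Depth is unknown and limits which weak sites were called. The promoters of the 10 members of the Hist1 and Hist2 inverted repeats match more than 1 place in the genome, and the part this played in their calls was not tested. The call at Hist1h1d differs between GENCODE and RefSeq starts. Peaks show access of DNase I and no RNA was measured, so nothing here gives histone expression or the share of cells in S phase.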
